A study of Mus musculus with 24 samples.

Results

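The genes of the surfactant system of the alveolar type 2 cell were followed in lung of wild-type and IL-13 knockout mice given PBS or HDM. The 10 genes encode the surfactant proteins A1, B, C and D (Sftpa1, Sftpb, Sftpc and Sftpd), the lamellar body proteins Abca3, Lamp3 and Napsa, the lipid-remodelling enzyme Lpcat1, the phosphate transporter Slc34a2 and the transcription factor Etv5. Every probe set whose annotation names one of these genes and no other was taken, which gave 20 probe sets for 9 of the 10 genes, out of 35067 single-gene probe sets on the arrays. Of the 20, 19 passed the filter on low signal and were tested among 31496 probe sets. Lamp3 has no value here, because its only probe set, 1417057_a_at, is annotated to Lamp3 and Ppid together.

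RNA from lung tissue of 12 samples was hybridised to a pair of oligonucleotide arrays each, set A and set B, in 4 groups of 3. The groups were wild-type mice given PBS, the vehicle (WT PBS), wild-type mice given HDM (WT HDM), IL-13 knockout mice given PBS (KO PBS) and IL-13 knockout mice given HDM (KO HDM). HDM is the abbreviation of the labels and in asthma models usually stands for house dust mite allergen; IL-13 is a type 2 cytokine of allergic airway disease. Background strain, age, sex, dose and schedule are not in the labels, nor is whether the 3 samples of a group were separate animals, so the p-values cover the scatter among the samples of a group, which may be technical.

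Pulmonary surfactant is a film of phospholipid and protein that lowers surface tension in the alveolus. Alveolar type 2 cells make it, store it in lamellar bodies and secrete it. Surfactant proteins B and C are small hydrophobic proteins that spread the lipid film, whereas A and D are collectins, lectins of innate defence that bind microbes and allergens.

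The promoters of 3 of the genes are shown because the results turn on these genes: signal of an Sftpb and of an Lpcat1 probe set fell after HDM in wild-type lung, whereas neither Sftpa1 probe set did. Each run is 250 bases before to 50 bases after the transcription start in RefSeq, build GRCm38.p6, 5′ to 3′ on the plus strand. Capitals mark CTCAAG, a core of sites bound by NKX2-1, the homeodomain factor of lung epithelium, searched on both strands. The 3 stretches lie at chr6:72304360-72304659 (Sftpb), chr14:41131538-41131837 (Sftpa1) and chr13:73466981-73467280 (Lpcat1).
Sftpb: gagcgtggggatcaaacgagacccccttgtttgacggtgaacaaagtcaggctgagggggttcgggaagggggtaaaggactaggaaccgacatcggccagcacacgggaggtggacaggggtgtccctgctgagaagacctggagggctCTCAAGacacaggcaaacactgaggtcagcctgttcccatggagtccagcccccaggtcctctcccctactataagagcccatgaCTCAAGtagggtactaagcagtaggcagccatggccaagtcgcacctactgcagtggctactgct
Sftpa1: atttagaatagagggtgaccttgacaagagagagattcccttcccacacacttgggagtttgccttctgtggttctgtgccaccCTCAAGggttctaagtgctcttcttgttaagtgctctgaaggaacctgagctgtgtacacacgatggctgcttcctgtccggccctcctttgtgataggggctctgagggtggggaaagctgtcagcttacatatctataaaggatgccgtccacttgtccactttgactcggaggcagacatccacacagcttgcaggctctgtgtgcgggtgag
Lpcat1: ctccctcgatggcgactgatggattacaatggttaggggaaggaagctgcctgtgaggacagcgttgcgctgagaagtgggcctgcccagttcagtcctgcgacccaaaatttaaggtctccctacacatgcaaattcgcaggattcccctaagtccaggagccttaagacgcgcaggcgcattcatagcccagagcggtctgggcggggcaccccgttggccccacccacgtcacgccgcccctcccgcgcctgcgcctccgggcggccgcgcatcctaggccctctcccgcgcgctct

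Sftpb held the motif at 2 places, with first bases 100 and 15 bases upstream of the start, and Sftpa1 held it at 1 place, 166 bases upstream. The Lpcat1 stretch held none. RefSeq promoters were matched for 7 of the 10 genes (8 promoters, 2 of them of Etv5; no entry for Sftpc, Sftpd and Napsa), and 2 of the 8 held CTCAAG, a motif found in 15.9% of 32851 promoters of the same length. The ETS core CCGGAA, the kind of site that Etv5 binds, was in 1 of the 8, that of Abca3 at 156 bases upstream, against 14.9% of all promoters. A STAT6 site, the element of the factor downstream of IL-13 (TTC, any 4 bases, GAA), was in 0 of the 8 against 6.95% of all. A match is a description of these letters and not a measured site.

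Signal was the deposited linear intensity of each probe set, scaled by the authors to the same trimmed mean of 150 on each array, and differences below are on the log2(signal + pseudocount) scale with their standard error. A probe set is said to have risen or fallen where limma's adjusted p, after Benjamini-Hochberg adjustment over all 31496 probe sets, was under 0.05. The main probe sets of Sftpa1, Sftpb, Sftpc, Sftpd and Slc34a2 were among the brightest in the lung, above at least 99.2% of set A probe sets in every sample. An Sftpa1 probe set was the brightest of all on 2 of the 12 set A arrays, and saturation flags were not used here. Il13, the gene removed in the knockout, was near the bottom of the scale, at 4.65 to 12.1 in WT PBS, 15.5 to 29.9 in WT HDM, 3.3 to 9.45 in KO PBS and 8.71 to 15.5 in KO HDM, all under the filter's 32, so these signals do not check the genotype labels. Samples also differed in 2 ways that went partly with the groups. On set A the actin control probes gave a 5′/3′ ratio, which falls as RNA degrades, of 0.409 in WT PBS 2 and 0.464 in KO HDM 1. It was 0.61 to 0.898 in the other 10 samples. Within the knockout this ratio was 0.464, 0.656 and 0.61 after HDM against 0.854, 0.748 and 0.797 after PBS, without overlap. On set B KO HDM 2 (0.612) lay above KO PBS 2 (0.61), so the groups overlapped. The GAPDH control ratio was 1.04 in WT PBS 2 and 1.16 in KO HDM 1 on set A, within the range of the other samples. On set B it was 1.02 and 0.791, the second the lowest of all. GAPDH ratios of KO HDM and KO PBS samples overlapped on both sets. Tnnc2, a skeletal muscle troponin, had a signal of 413 in WT PBS 2, 198 in WT HDM 1 and 988 in WT HDM 2 and under 10 in the other 9. The samples with muscle signal were thus all wild type. The part of the actin ratio and of muscle signal in the results was not tested.

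After HDM in wild-type lung, 1 probe set each of Sftpb, Napsa and Lpcat1 fell, and none rose. The other Napsa and Lpcat1 probe sets, and all those of Sftpa1, Sftpc, Sftpd, Abca3, Slc34a2 and Etv5, did not pass the test. The 3 that fell are 15.8% of the 19 tested, where 7.7% of all tested probe sets were called (3.85% higher and 3.85% lower). At an unadjusted p under 0.05 there were 7 of the 19 (36.8%), 6 lower and 1 higher (Sftpa1 1429626_at), against 20.0% of all tested probe sets. Values were below 0 for 14 of the 19, and their median was −0.16 against −0.01 for all probe sets, whose middle part spanned −0.23 to 0.23. In bulk tissue, fewer cells of a type and less RNA per cell cannot be told apart.

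**Figure D1:**
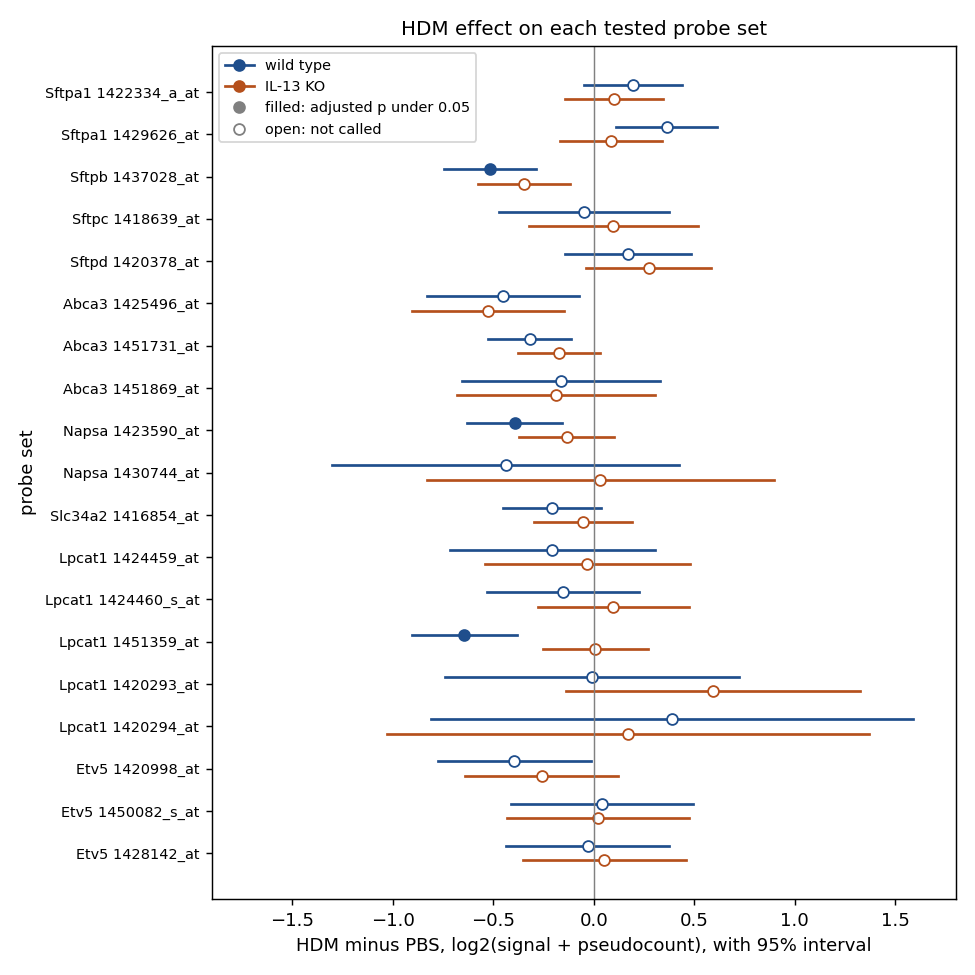
Difference between HDM and PBS samples (log2 scale, horizontal axis) of each of the 19 tested probe sets, in wild-type (blue) and IL-13 KO lung (orange), with 95% intervals from limma; filled points have an adjusted p under 0.05. The filled points are Sftpb, Napsa 1423590_at and Lpcat1 1451359_at in wild type, all left of 0, and no KO point is filled.

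Sftpb encodes the surfactant protein without which lamellar bodies do not form. Its probe set 1437028_at had signals of 3862, 3975 and 4501 in WT PBS and 2762, 2967 and 2874 in WT HDM. In the knockout the signals were 4861, 4047 and 4122 after PBS and 3432, 3328 and 3443 after HDM. In both genotypes each HDM sample lay below each PBS sample. The group means were 4113 ± 341 and 2868 ± 103 in wild type and 4343 ± 450 and 3401 ± 63.4 in the knockout (SD, n = 3). The wild-type difference was −0.52 ± 0.10 (95% interval −0.74 to −0.29, limma adjusted p = 0.0094). The knockout difference was −0.35 ± 0.10 (−0.57 to −0.12) and missed the threshold at a limma adjusted p of 0.061. The interaction, the KO effect minus the wild-type effect, was 0.17 ± 0.15 with an interval of −0.15 to 0.49 (limma adjusted p = 0.949), so a difference between genotypes was not shown. After quantile normalization Sftpb passed in both genotypes, at −0.62 in wild type (limma adjusted p = 0.0026) and −0.64 in the knockout (limma adjusted p = 0.0023). Sftpb no longer passed in wild type in a fit of the wild-type samples alone (adjusted p = 0.058) or without the 3 samples with muscle signal, which leaves 1 WT HDM sample (−0.54, limma adjusted p = 0.144).

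Surfactant protein C, which only type 2 cells make in the lung, did not pass the test in either genotype. Sftpc 1418639_at had signals of 6061, 5275 and 5777 in WT PBS and 4300, 5479 and 7102 in WT HDM. The 3 WT HDM samples lay below, within and above the PBS samples. KO PBS samples had 5788, 6041 and 3790 and KO HDM samples 5252, 5580 and 5546, again with overlap. The difference was −0.05 ± 0.19 in wild type (95% interval −0.47 to 0.38, limma adjusted p = 0.938) and 0.10 ± 0.19 in the knockout (−0.32 to 0.52, adjusted p = 0.818). The lower ends of these intervals, −0.47 and −0.32, come near the Sftpb values of −0.52 and −0.35. A further Sftpc probe set, 1438290_x_at, had signals of 12 to 36.5, under the filter, and was not tested.

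The collectins had values above 0 that did not pass the test, and in the knockout Sftpd and the brighter Sftpa1 probe set changed sign after quantile normalization. Sftpd 1420378_at had signals of 3967, 4636 and 4636 in WT PBS, 4001, 5025 and 6041 in WT HDM, 3932, 4131 and 3581 in KO PBS and 4744, 4349 and 4981 in KO HDM. The KO HDM samples all lay above the KO PBS samples, and the wild-type groups overlapped. The difference was 0.17 ± 0.14 in wild type (limma adjusted p = 0.584) and 0.27 ± 0.14 in the knockout (95% interval −0.04 to 0.59, limma adjusted p = 0.287).

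Sftpa1 was read by 2 probe sets. The brighter, 1422334_a_at, had 5014, 4792 and 5064 in WT PBS, 4884, 6387 and 5847 in WT HDM, 4782, 4685 and 4448 in KO PBS and 4741, 4932 and 5273 in KO HDM. Its groups overlapped in both genotypes, with differences of 0.19 ± 0.11 (limma adjusted p = 0.378) and 0.10 ± 0.11 (adjusted p = 0.649). The dimmer, 1429626_at, had 1457, 1379 and 1266 in WT PBS, 1875, 1762 and 1642 in WT HDM, 1088, 1390 and 1344 in KO PBS and 1379, 1237 and 1424 in KO HDM. Here the WT HDM samples stood above all 9 others. The wild-type difference of 0.36 ± 0.12 (95% interval 0.11 to 0.61) missed the threshold at a limma adjusted p of 0.083, and the knockout difference was 0.09 ± 0.12 (adjusted p = 0.723). After HDM the knockout was lower than wild type by −0.38 ± 0.12 on this probe set, without overlap, at a limma adjusted p of 0.291.

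**Figure D2:**
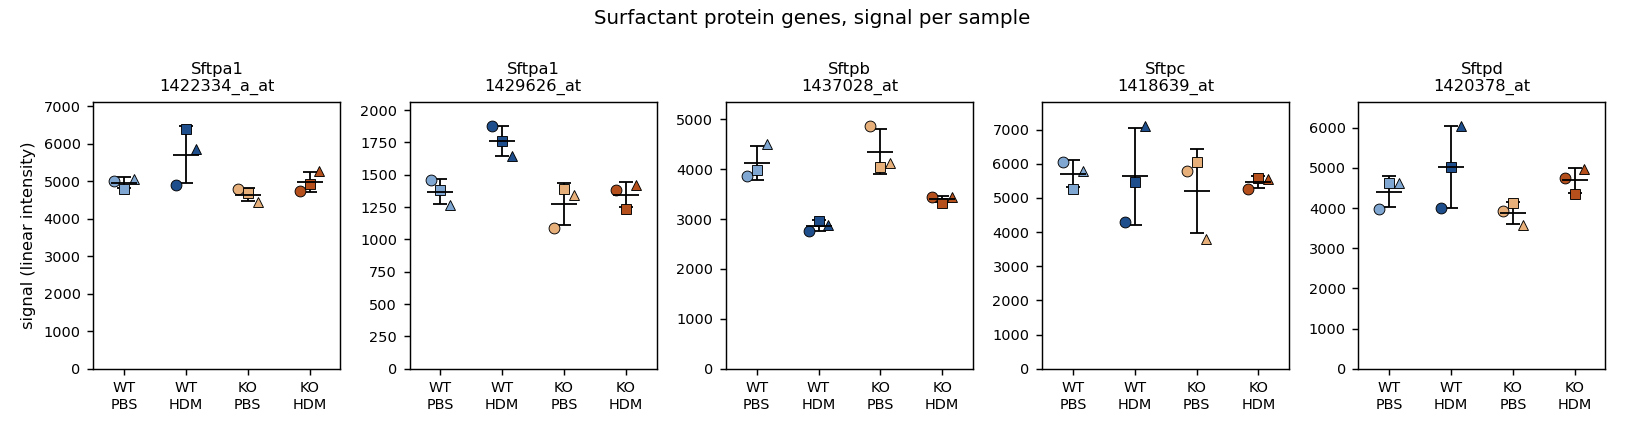
Signal (linear intensity, vertical axis from 0) of the 5 tested surfactant protein probe sets in each of the 12 samples; circles, squares and triangles are replicates 1, 2 and 3, and black bars are the mean and SD of each group of 3. Sftpb is lower in HDM than in PBS samples of both genotypes, while Sftpc, Sftpd and Sftpa1 1422334_a_at overlap between WT PBS and WT HDM.

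The upper end of the arrays, where these probe sets lie, differed between samples. The mean of the 100 brightest set A probe sets outside the gene list, a measure chosen after the data were seen, ranged from 3186 to 4626.2 although all arrays shared one trimmed mean. It was 4164.5, 4449.6 and 4458.2 in KO HDM against 3753.7, 3736.9 and 3186 in KO PBS, without overlap, and 3381.6, 3957.3 and 4626.2 in WT HDM against 3767, 3521.3 and 3568.1 in WT PBS. WT HDM 3, which had the highest signals of Sftpc and Sftpd, had the highest such mean, and KO PBS 3, which had the lowest of both, had the lowest. Its part in the values of these genes was not tested.

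Quantile normalization, which gives every array the same distribution, lets the few brightest probe sets take only the few top values of that distribution, so that Sftpc stood at 5725.3 in 4 samples and its narrower spread on this scale is set by construction. The knockout differences then changed sign without passing the test, to −0.09 for Sftpc (limma adjusted p = 0.649), −0.04 for Sftpd (adjusted p = 0.863) and −0.17 for Sftpa1 1422334_a_at (adjusted p = 0.38). The fall of Sftpb was as large or larger on this scale.

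**Figure D3:**
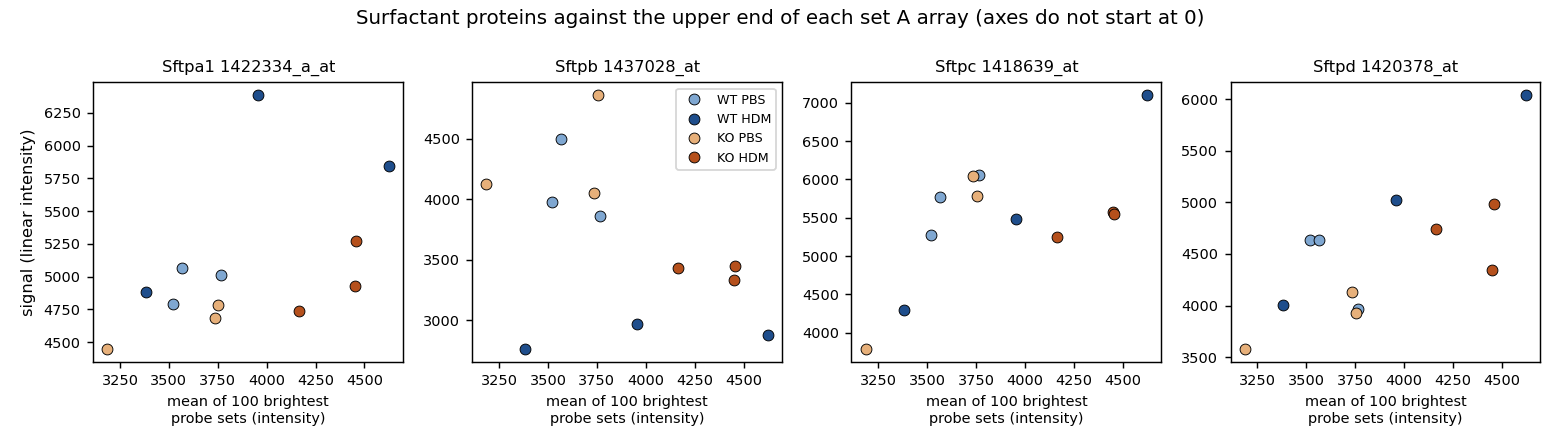
Signal (linear intensity) of the brightest probe set of Sftpa1, Sftpb, Sftpc and Sftpd against the mean intensity of the 100 brightest other probe sets of the same set A array, 1 point per sample, coloured by group; axes do not start at 0. WT HDM 3 lies farthest right (4626.2) and KO PBS 3 farthest left (3186), and these samples are the highest and the lowest of the Sftpc and Sftpd panels.

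Members of the gene list did not vary as one over the samples. Among the 18 pairs of probe sets of the same gene, r over the 12 samples ran from −0.33 to 0.89 with a median of 0.20, and among the 153 pairs of different genes from −0.84 to 0.87 with a median of −0.04. These are descriptions on arrays that share their scaling. The genes outside the list most like Sftpc over the 12 samples were C2cd2l (r = 0.88), Eef1a1 (0.87), Sparc (0.87), Lypla2 (0.85) and Scgb1a1 (0.84), the last being the club cell secretoglobin. Those most like Sftpd were Ube2f (r = 0.91), Rab13 (0.89), Igfbp7 (0.88), Cox8a (0.87) and Tmsb4x (0.87). All were picked for the highest r among the other tested genes of set A, so high values follow in part from the choice. No test was made of these values.

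Among the lamellar body genes, Napsa 1423590_at fell in wild type and no Abca3 probe set passed the test. Napsa encodes napsin A, an aspartic protease that processes the precursors of the hydrophobic surfactant proteins. Napsa 1423590_at had 2015, 2137 and 2132 in WT PBS and 1721, 1421 and 1654 in WT HDM, without overlap. Its KO signals were 2045, 1721 and 1824 after PBS and 1768, 1769 and 1548 after HDM, which overlap. The wild-type difference was −0.39 ± 0.11 (95% interval −0.63 to −0.16, limma adjusted p = 0.046) and the knockout difference −0.14 ± 0.11 (adjusted p = 0.51). The interaction was 0.26 ± 0.15 (limma adjusted p = 0.923). The Napsa call is a narrow one: it held in 5 of 23 alternative settings, with adjusted p of 0.0099 to 0.366 and values of −0.54 to −0.31. It was lost without WT PBS 1, 2 or 3, WT HDM 2 or 3, or any single KO sample (limma adjusted p of 0.0501 to 0.17), and without WT HDM 2 the value was −0.31. The set B probe set Napsa 1430744_at had signals of 34.2 to 132 and a wild-type difference of −0.44 ± 0.40 (adjusted p = 0.614).

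Abca3 is the transporter that loads phospholipid into lamellar bodies. Abca3 1451731_at had 1184, 1178 and 1132 in WT PBS and 879, 963 and 956 in WT HDM, and 1316, 1310 and 1191 in KO PBS and 1150, 1040 and 1198 in KO HDM. The wild-type groups did not overlap, and the knockout groups shared a narrow range. Its difference was −0.32 ± 0.09 in wild type (limma adjusted p = 0.061) and −0.17 ± 0.09 in the knockout (adjusted p = 0.308). Abca3 1425496_at had 439, 613 and 377 in WT PBS, 304, 364 and 352 in WT HDM, 596, 531 and 560 in KO PBS and 327, 460 and 388 in KO HDM. On this probe set neither genotype's groups overlapped, with differences of −0.45 ± 0.17 (limma adjusted p = 0.155) and −0.53 ± 0.17 (adjusted p = 0.0861). After quantile normalization 1451731_at passed in wild type at −0.36 (limma adjusted p = 0.0176), and without WT PBS 2, 1425496_at passed in the knockout at −0.53 (limma adjusted p = 0.0382). The third, 1451869_at, was dim at 33.9 to 59.6 and had −0.16 ± 0.23 and −0.19 ± 0.23 (adjusted p = 0.765 and 0.68).

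Slc34a2 is the sodium-phosphate cotransporter of the apical membrane of type 2 cells, which takes up phosphate from surfactant phospholipid. Slc34a2 1416854_at had 3581, 3589 and 3355 in WT PBS and 2950, 3001 and 3149 in WT HDM, without overlap, and 3912, 3686 and 3042 in KO PBS and 3115, 3422 and 3675 in KO HDM, with overlap. Its differences were −0.21 ± 0.11 (limma adjusted p = 0.338) and −0.05 ± 0.11 (adjusted p = 0.828). After quantile normalization it passed in both genotypes, at −0.37 (limma adjusted p = 0.0276) and −0.40 (adjusted p = 0.018). With median centring it passed in neither, so whether it passed differed between the scalings tried.

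Etv5 is an ETS factor needed to maintain the type 2 cell. Etv5 1420998_at had 256, 211 and 214 in WT PBS, 177, 176 and 159 in WT HDM, 166, 208 and 223 in KO PBS and 139, 211 and 150 in KO HDM. The wild-type groups did not overlap, and the difference was −0.40 ± 0.18 (limma adjusted p = 0.228), with −0.26 ± 0.18 in the knockout (adjusted p = 0.424). The other 2 Etv5 probe sets lay near 0: 1450082_s_at had 0.04 ± 0.21 and 0.02 ± 0.21, and 1428142_at, the brightest of the 3 at 1142 to 2000, had −0.03 ± 0.19 and 0.05 ± 0.19.

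Lpcat1 had the largest interaction of the 19 tested probe sets, on 1 of its 5 probe sets. Lpcat1 is an acyltransferase that remodels phosphatidylcholine to the saturated form that surfactant needs. Lpcat1 1451359_at had 707, 913 and 858 in WT PBS and 562, 516 and 493 in WT HDM. KO PBS samples had 815, 945 and 873 and KO HDM samples 927, 793 and 928. The 3 WT HDM samples lay below all 9 others. Group means were 826 ± 107, 524 ± 34.9, 878 ± 65.4 and 883 ± 77.7 (SD, n = 3). The HDM difference was −0.64 ± 0.12 in wild type (95% interval −0.91 to −0.38, limma adjusted p = 0.0059) and 0.01 ± 0.12 in the knockout (−0.25 to 0.27, adjusted p = 0.982). After HDM, knockout lung was higher than wild type by 0.74 ± 0.12 (0.48 to 1.01), a fold of 1.67 on this scale (limma adjusted p = 0.0165), while after PBS the genotypes differed by 0.09 ± 0.12 (adjusted p = 0.921).

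The test of the difference between genotypes did not pass for Lpcat1. The interaction was 0.65 ± 0.17 (95% interval 0.28 to 1.02), with an unadjusted p of 0.0023 and a limma adjusted p of 0.513, in a comparison in which 0.0857% of all probe sets were called. It was the 1 probe set of the 19 with an unadjusted p under 0.05, and 0 of the 19 were called. That 1 is 5.26% of the 19, near the 5.71% of all probe sets with such a p in limma. The difference between knockout and wild type after HDM was lost without WT HDM 2 (limma adjusted p = 0.0771), WT HDM 3 (0.0725), KO HDM 1 (0.0914) or KO HDM 3 (0.0929), with values of 0.70 to 0.73. The actin ratio of set A moved with this comparison, at 0.464, 0.656 and 0.61 in KO HDM against 0.822, 0.695 and 0.832 in WT HDM, without overlap. Actin ratios of set B did not overlap either, while the GAPDH ratios overlapped on both sets. The part of the actin ratio in the result was not tested. Without the samples of the lowest ratios (WT PBS 2 and KO HDM 1) the value was 0.71 (limma adjusted p = 0.086).

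The other Lpcat1 probe sets did not show the split at the threshold. Lpcat1 1424460_s_at had 2454, 1546 and 2394 in WT PBS, 1865, 1901 and 1860 in WT HDM, 2151, 2764 and 1958 in KO PBS and 2389, 2258 and 2646 in KO HDM. The KO HDM samples all lay above the WT HDM samples, by 0.37 ± 0.17 (95% interval −0.01 to 0.75, limma adjusted p = 0.597), while the wild-type HDM difference was −0.15 ± 0.17 (adjusted p = 0.7). Lpcat1 1424459_at had 2575, 1392 and 2726 in WT PBS, 1644, 1764 and 2191 in WT HDM, 2052, 2857 and 2061 in KO PBS and 2113, 2015 and 2656 in KO HDM, with overlap throughout. Its differences were −0.21 ± 0.23 for HDM in wild type (adjusted p = 0.703) and 0.28 ± 0.23 for knockout against wild type after HDM (adjusted p = 0.828). On both of these probe sets WT PBS 2, the sample with the lowest actin ratio, was the lowest of all 12, while on 1451359_at it was the highest of its group.

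The set B probe sets of Lpcat1 were dimmer. Lpcat1 1420293_at had 79.9, 197 and 205 in WT PBS, 220, 107 and 136 in WT HDM, 140, 117 and 118 in KO PBS and 271, 169 and 159 in KO HDM. Only its knockout groups did not overlap among the HDM comparisons, at 0.59 ± 0.34 (limma adjusted p = 0.326). Lpcat1 1420294_at ranged from 8.19 to 84 with standard errors of 0.55 on each difference. Of the Lpcat1 probe sets only 1451359_at passed, yet the interaction intervals of the others all include its 0.65. They were −0.55 to 0.90 (1424459_at), −0.28 to 0.78 (1424460_s_at), −0.43 to 1.64 (1420293_at) and −1.91 to 1.48 (1420294_at). A disagreement in the interaction was therefore not shown. For HDM in wild type, the interval of 1424460_s_at (−0.53 to 0.22) does not include the −0.64 of 1451359_at. It does overlap the interval of 1451359_at, −0.91 to −0.38. Those of 1424459_at, 1420293_at and 1420294_at include −0.64, and differences between probe sets were not tested. Which transcript each probe set reads was not analysed here.

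**Figure D4:**
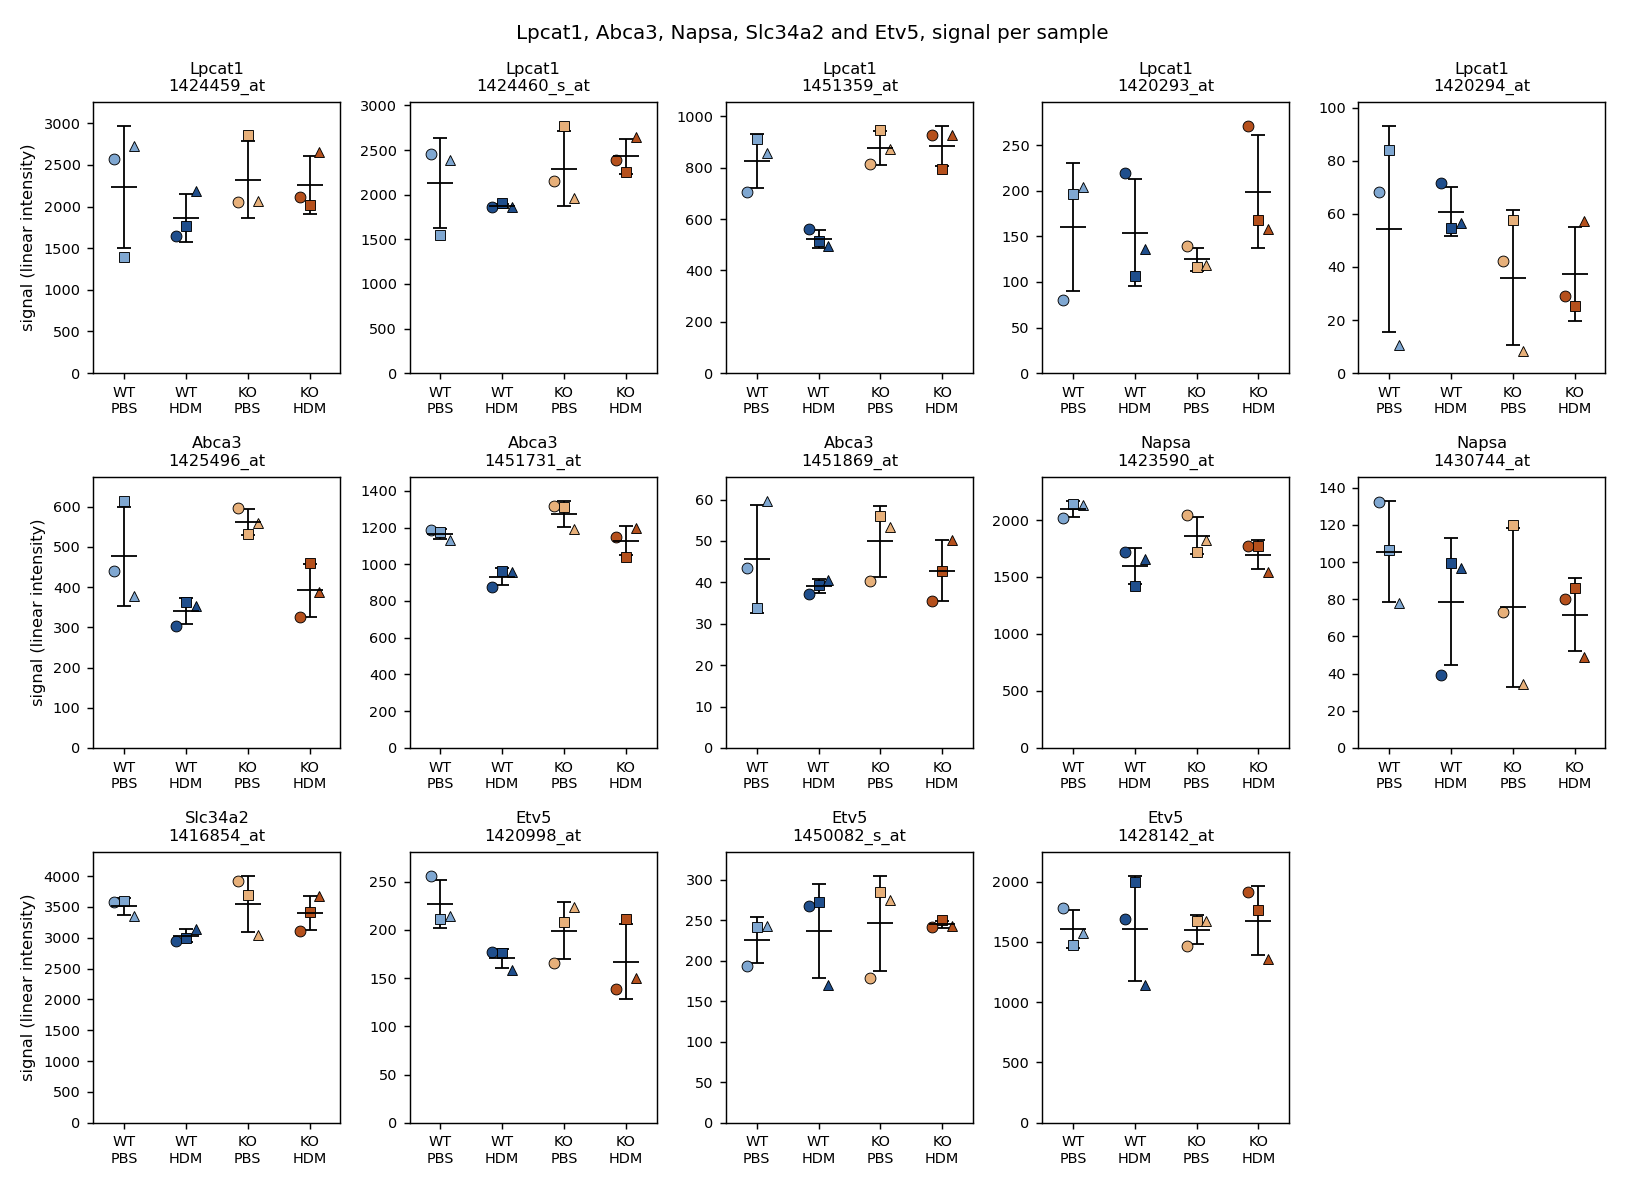
Signal (linear intensity, vertical axis from 0) in each of the 12 samples of all 14 tested probe sets of Lpcat1 (top row), Abca3 and Napsa (middle row) and Slc34a2 and Etv5 (bottom row); circles, squares and triangles are replicates 1, 2 and 3, and black bars are the mean and SD of 3. On Lpcat1 1451359_at the 3 WT HDM samples (493 to 562) lie below all others, a pattern the other Lpcat1 panels do not show.

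In the knockout, none of the 19 probe sets passed the test for HDM, against 8.56% of all probe sets (4.24% higher and 4.31% lower). At an unadjusted p under 0.05 there were 2 of 19, Sftpb and Abca3 1425496_at (10.5%), against 22.6% of all probe sets. The median of the 19 was 0.02 against 0.00 for all probe sets, and 8 of the 19 lay below 0. Between genotypes after PBS, 0 of 19 passed, against 0.0381% of all probe sets called. None of the 19 had an unadjusted p under 0.05, against 6.8% of all. After HDM 1 of 19 passed (5.26%, Lpcat1 1451359_at, higher in the knockout) against 0.457% of all probe sets, and 4 (21.1%) had an unadjusted p under 0.05, against 8.5% of all. Those 4 were Sftpa1 1429626_at at −0.38, Sftpb at 0.25, Abca3 1451731_at at 0.27 and Lpcat1 1451359_at at 0.74. The HDM comparisons of the 2 genotypes use different samples, but each shares samples with the comparisons between genotypes.

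The lists that follow, with 1 probe set a gene, stand beside 7.7% of all probe sets called in wild type and 8.56% in the knockout, and medians of −0.01 and 0.00. These shares are not fully alike, because a list takes the brightest tested probe set of each gene. Among brighter probe sets (filter at the 50th percentile), 2409 of 22469 were called in wild type and 2670 in the knockout. The share over all genes with 1 probe set each is not given here. Of 16 tested genes of surfactant lipid synthesis (18 listed), 1 rose and 2 fell in wild type after HDM (18.8%) and none passed in the knockout, with medians of −0.12 and −0.16. The 2 that fell became 1 without any 1 of WT PBS 1 or 2, WT HDM 1 or 2, KO PBS 1 or KO HDM 1, 2 or 3. Me1, which supplies NADPH for fatty acid synthesis, rose by 0.99 ± 0.14 in wild type (limma adjusted p = 0.0011) and was lower in the knockout than in wild type after HDM, at −1.29 ± 0.14 (limma adjusted p = 0.0014). Elovl1, a fatty acid elongase, was at −0.51 ± 0.10 (limma adjusted p = 0.0094) and Acly, which makes cytosolic acetyl-CoA, at −0.39 ± 0.10 (limma adjusted p = 0.035).

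Among 10 tested genes of surfactant processing and turnover (14 listed), 4 rose and 1 fell in each genotype. The 4 that rose were Csf2rb (1.36 ± 0.13, limma adjusted p = 4.3e-05) and Csf2ra (1.27 ± 0.17, limma adjusted p = 0.00068), the chains of the GM-CSF receptor through which alveolar macrophages clear surfactant, the lysosomal phospholipase Pla2g15 (1.18 ± 0.16, limma adjusted p = 0.00078) and Ctsh (0.68 ± 0.13, limma adjusted p = 0.0071), a cathepsin that processes surfactant protein precursors. In the knockout they stood at 1.16, 0.67, 1.02 and 0.72. Adgrf5, an adhesion receptor that restrains the surfactant pool, fell by 0.53 ± 0.10 in wild type (limma adjusted p = 0.0069) and by 0.41 ± 0.10 in the knockout (limma adjusted p = 0.026). That knockout call was lost without KO PBS 1 or 2 or any 1 KO HDM sample. Macrophages express several of these genes, and the 9 tested leukocyte markers moved with them: 6 of 9 rose in wild type and 4 of 9 in the knockout, with medians of 0.84 and 0.68 and summed signals of 7059 to 7335 in WT PBS, 8338 to 11487 in WT HDM, 6645 to 8844 in KO PBS and 9772 to 11427 in KO HDM. The 6 became 3 without WT PBS 2 or without WT HDM 3. Itgax, the integrin CD11c, was at 2.34 ± 0.10 and the macrophage glycoprotein Cd68 at 1.76 ± 0.12 in wild type (limma adjusted p = 3.6e-07 and 5.4e-06). Their part in the results on type 2 cell genes was not tested.

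Of the 12 tested transcription and growth factor genes of the type 2 cell (15 listed), 3 fell in wild type, 2 fell in the knockout and none rose, with medians of −0.33 and −0.28. The 3 became 1 without WT PBS 1, WT HDM 1 or WT HDM 2. Foxa1, a forkhead factor of lung epithelium, fell by 0.83 ± 0.16 and 0.77 ± 0.16 (limma adjusted p = 0.0062 and 0.0098). Gata6, a zinc finger factor of the same lineage, fell by 0.47 ± 0.12 and 0.76 ± 0.12 (limma adjusted p = 0.038 and 0.0026). Nfib, a factor of lung maturation, fell by 0.55 ± 0.13 in wild type (limma adjusted p = 0.026) and had −0.25 ± 0.13 in the knockout (adjusted p = 0.29). Nkx2-1, whose motif stands in the Sftpb and Sftpa1 promoters above, had −0.38 ± 0.33 in wild type and −0.39 ± 0.33 in the knockout (limma adjusted p = 0.596 and 0.532).

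Other markers of the type 2 cell went both ways, and which cells of the lung gave their signal was not tested. Of 16 tested (18 listed), 5 rose and 3 fell in wild type, and 2 rose and none fell in the knockout, with medians of 0.07 and 0.06. The 3 that fell became 1 without WT PBS 2, WT HDM 2 or WT HDM 3, and the 2 that rose in the knockout became 1 without KO PBS 1 or 2 or KO HDM 1 or 3. Those that rose with the smallest p were Il33, an alarmin cytokine (1.37 ± 0.14, limma adjusted p = 8.9e-05), Chil1, a chitinase-like protein (1.19 ± 0.13, adjusted p = 0.00013), Fabp5, a fatty acid binding protein (1.23 ± 0.17, adjusted p = 0.0009) and Hc, complement C5 (0.61 ± 0.11, adjusted p = 0.0058). The ion channel gene Kcnj15 also rose (0.84 ± 0.23, adjusted p = 0.043), and Lyz1, Cldn18 and Lgi3 fell by 0.52, 0.59 and 0.68. After HDM, Il33, Chil1 and Kcnj15 were lower in the knockout than in wild type, at −1.07, −0.74 and −1.36 (limma adjusted p = 0.0045, 0.022 and 0.02). These 3 are 18.8% of the 16, against 0.457% of all probe sets called in this comparison. The count became 1 without WT HDM 2 or 3 or any 1 KO HDM sample. Kcnj15, Lyz1, Cldn18 and Lgi3, like Ctsh and Nkx2-1 above, were named after their values were seen. The summed signal of the 16 was 21753 to 25930 in WT PBS, 26196 to 31930 in WT HDM, 22133 to 22582 in KO PBS and 23957 to 26201 in KO HDM. Much of it came from 1 bright gene that was not called, the chemokine Cxcl15 (0.54 ± 0.19 in wild type, limma adjusted p = 0.108). Without Cxcl15 the sums were 16105 to 17579, 17774 to 19588, 15186 to 15911 and 15683 to 16886, which overlap in the knockout.

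Of 10 alveolar type 1 markers, 7 fell in wild type and 5 in the knockout, with medians of −0.70 and −0.67. The water channel Aqp5 had −1.22 ± 0.12, Emp2 −0.84 ± 0.11, the caveolin Cav1 −0.66 ± 0.10 and the anchoring protein Akap5 −1.63 ± 0.28 in wild type (limma adjusted p of 5.4e-05, 0.00052, 0.0019 and 0.0033). Their summed signal was 32793 to 38160 in WT PBS and 20948 to 25023 in WT HDM, and 38078 to 41896 in KO PBS and 26844 to 28742 in KO HDM. Of 8 endothelial markers 7 and 6 fell, led by Tek at −1.12 ± 0.10 (limma adjusted p = 4.3e-05), Kdr at −0.82, Cdh5 at −0.75 and Tie1 at −0.68. Without KO HDM 2 the 6 endothelial markers became 3, and without the 3 samples with muscle signal the 7 became 3 and the 7 type 1 markers 4. Of 10 pan-epithelial markers 3 and 4 fell, with Krt19 at −1.13, Ocln at −0.84 and Krt7 at −0.66 in wild type, and the 4 became 2 without KO PBS 1. In wild type these lists fell in the same comparison as Sftpb, Napsa 1423590_at, Lpcat1 1451359_at and Adgrf5. The lists fell in the knockout too, where Sftpb had −0.35, Adgrf5 −0.41, Napsa 1423590_at −0.14 and Lpcat1 1451359_at 0.01. The part of the lists in those results was not tested.

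Of 6 club cell markers, 3 fell in wild type, and 2 fell and 1 rose in the knockout. Scgb3a2, a club cell secretoglobin, had −1.40 ± 0.11 in wild type (limma adjusted p = 1.1e-05), where Cyp4b1 had −1.36 and Cyp2f2 −0.66. Without KO HDM 3 the 2 that fell in the knockout became 1. Of 8 mature dendritic cell markers 3 rose in each genotype (Cd83 2.09, Ccl22 2.64 and Ccl17 1.12 in wild type), the 3 of the knockout becoming 1 without KO PBS 1 or any 1 KO HDM sample, and none of 3 tested skeletal muscle markers passed (Acta1 1.41 ± 1.18 and Myh4 0.38 ± 0.43).

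**Figure D5:**
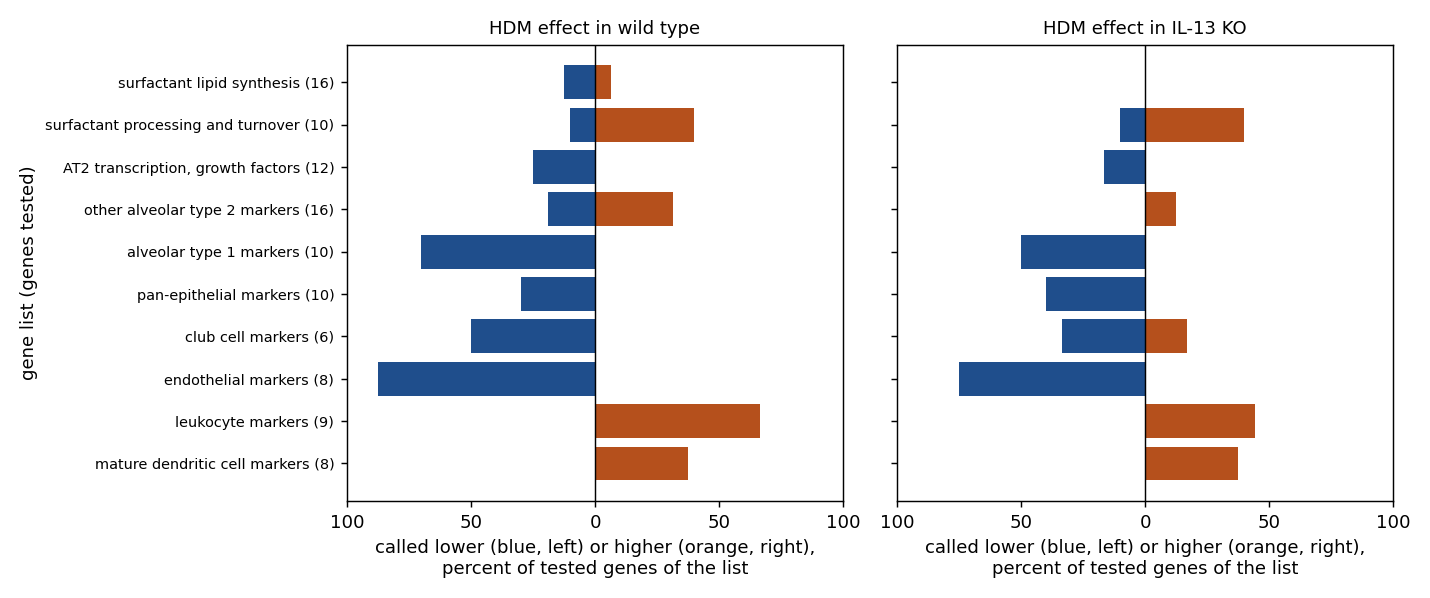
Percent of the tested genes of each list that fell (blue, to the left) or rose (orange, to the right) after HDM at a limma adjusted p under 0.05, in wild type (left panel) and IL-13 KO (right panel); the number of genes tested is given after each name. Alveolar type 1 (7 of 10 in wild type) and endothelial (7 of 8) markers fell, leukocyte markers (6 of 9) rose, and other alveolar type 2 markers went both ways (5 up and 3 down of 16).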

How the data were processed

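Per the labels, RNA of mouse lung was measured on 24 arrays, a set A and a set B array for each of 12 samples, joined by sample title. The deposited values are intensities on a linear scale, 1 per probe set; the software behind them is not given in the sources used here. Per array, the trimmed mean (2% off each end) was 150 throughout, so the authors had scaled them alike. The test scale was log2(intensity + pseudocount), the pseudocount being the 10th percentile of a set (7 on A, 11 on B), which understates changes at low signal. Left out were controls and any probe set whose mean lay below the 30th percentile (32 on A, 39.2 on B). One limma 3.58.1 model (R 4.3.3) of the 4 groups, with 8 residual degrees of freedom and eBayes with trend, gave 5 comparisons, adjusted by Benjamini-Hochberg over 31496 probe sets. The number of arrays limits the precision. The script was tested on simulated data.

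Gene names came from the platform annotation. Every single-gene probe set of the listed genes is named; Lamp3 has none, and its likeness to other genes was not computed. A gene of a pathway or marker list was read from whichever of its tested probe sets had the highest mean, and up to 4 called genes with the smallest p in wild type (else 2) were named. The genes most like Sftpc and Sftpd were the 5 with the highest Pearson r of the log2 values on set A. Members and lists were chosen with earlier results of these data known. Alternatives were 2 pseudocounts, 2 filters, 2 scalings, no trend, fits of the compared groups alone, a replicate block, 2 sets of doubted samples left out and each sample left out.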

Additional observations from a re-analysis of the deposited data

How the results depend on the processing

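Of 2160 results of single probe sets under the 23 alternatives, 2126 kept their side of the threshold, 28 lost a call, 6 gained one and 0 reversed; 114 changed sign with a call in neither. In wild type, Sftpb fell in 21 of 23 settings (−0.62 to −0.45) and Lpcat1 1451359_at in 22 (−0.75 to −0.57), while the difference of Lpcat1 after HDM passed in 16 (0.70 to 0.83) and Napsa in 5. The count of called probe sets for HDM in wild type was 3, and was 5 with quantile normalization, 2 without a filter, with median centring, with no trend or without the samples of the lowest actin ratio, 1 in a fit of the compared groups alone (fewer samples) and 0 without the 3 samples with muscle signal (1 WT HDM sample left, whose spread is assumed to be that of the other groups). For HDM in the knockout the count was 0, and 1 with the filter at the 50th percentile (Sftpb, limma adjusted p = 0.047; fewer probe sets tested) and 2 with quantile normalization. For knockout against wild type after HDM it was 1, and 0 with no trend (Lpcat1, limma adjusted p = 0.06), without the muscle samples (0.83, limma adjusted p = 0.146) and without the lowest actin ratios. Beyond the fewer samples or probe sets named, the cause was not tested.

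With 1 sample left out at a time the counts were 2 to 3 for wild type, 0 to 1 for the knockout, 0 to 0 for the interaction, 0 to 0 after PBS and 0 to 1 after HDM. With the replicate block the counts were 2, 0, 0, 0 and 1, the call lost being Napsa (limma adjusted p = 0.065). The numbers did not pair the samples: over 18 same-numbered pairs, deviations from group means correlated at −0.09 to 0.17, and 4 of 12 samples correlated best with their own number. Over all 23 alternatives, 2425 of 2530 counts of list genes stayed within 1.5 times and 105 moved, 35 of them for HDM in wild type, 28 for HDM in the knockout, 34 for the interaction, 0 after PBS and 8 for knockout against wild type after HDM. Dim probe sets (Lpcat1 1420294_at, Napsa 1430744_at) carry intervals too wide to show changes of the size seen for Sftpb, and set B values rest on titles for their pairing with set A.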
